A study of Mus musculus with 24 samples.

Results

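Trimethylation of lysine 4 of histone H3 (H3K4me3) was compared between lung endothelial cells of Dnmt3a knockout mice (KO) and those of wild-type animals (WT). The members are all peaks of both deposited H3K4me3 lists, 14984 in WT and 22724 in KO, together 37708 of the 313065 peaks that the series holds for 4 histone marks on chromosomes 1 to 19 of mm10. The endothelial cells had been sorted from lung by flow cytometry, and the marks were mapped by ACT-seq, in which an antibody brings a Tn5 transposase to the mark so that the DNA beside it is cut and tagged. Yeast chromatin targeted through histone H2B served as a spike-in. The labels give 3 KO and 3 WT samples for H3K4me3, 6 of 24 in all, and name neither the age and strain of the mice nor the promoter or Cre line behind the deletion. Both groups share tissue, sort and assay, and differ in the labels by genotype alone.

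Only 1 peak list stands for each group. No value per sample, depth or peak height entered, no spread between replicates can be given, and no test was run, so each difference below is a difference between 2 lists. Intervals are 95% exact (Clopper-Pearson) ones. They take peaks or genes as independent and cover counting error only. A list also cannot tell a mark carried by a larger share of cells from a mark that is stronger in each cell.

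H3K4me3 is laid down by the SET1 and MLL methyltransferases, mainly around the starts of transcribed genes, and CXXC-domain proteins direct it to CpG islands that are free of DNA methylation. DNMT3A is a de novo DNA methyltransferase whose ADD domain reads the tail of histone H3. That domain binds the tail when lysine 4 is unmodified and is repelled by its methylation, so that marked promoters tend to be spared from DNA methylation.

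The promoters that carry the main contrasts are shown first. Each is the 250 bases upstream of an annotated start of transcription, written 5′ to 3′ along the gene's strand and taken from RefSeq on GRCm38.p6, the assembly named mm10. CG dinucleotides, the sites of DNA methylation in mammals, are in capitals. The motif searched was CG, which reads the same on both strands. It occurs in this window in 93.3% of 16457 protein-coding genes with a listed promoter, and 10 or more copies occur in 54.5%. Igf2r (chr17:12769707-12769956, minus strand, 27 CG) and Ssh1 (chr5:113993791-113994040, minus strand, 31 CG) carried wide H3K4me3 peaks in the KO list and none in the WT list. Sox21 (chr14:118237031-118237280, minus strand, 17 CG) is a developmental regulator of other lineages with a KO-only peak, and Trim34a (chr7:104244207-104244456, plus strand, 3 CG) is a CG-poor promoter with one. Gpr3 (chr4:133212537-133212786, minus strand, 29 CG) is the opposite case, with a peak in the WT list only.
Igf2r: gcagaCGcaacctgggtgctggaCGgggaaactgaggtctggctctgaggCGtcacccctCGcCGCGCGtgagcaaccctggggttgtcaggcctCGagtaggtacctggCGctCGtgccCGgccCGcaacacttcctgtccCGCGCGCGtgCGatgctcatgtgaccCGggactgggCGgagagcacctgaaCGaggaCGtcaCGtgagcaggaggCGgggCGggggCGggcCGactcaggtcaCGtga
Ssh1: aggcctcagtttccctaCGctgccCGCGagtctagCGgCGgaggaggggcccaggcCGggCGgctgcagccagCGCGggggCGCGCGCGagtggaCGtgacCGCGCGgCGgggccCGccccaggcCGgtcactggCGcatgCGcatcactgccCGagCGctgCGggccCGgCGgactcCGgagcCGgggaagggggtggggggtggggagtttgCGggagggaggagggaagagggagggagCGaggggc
Sox21: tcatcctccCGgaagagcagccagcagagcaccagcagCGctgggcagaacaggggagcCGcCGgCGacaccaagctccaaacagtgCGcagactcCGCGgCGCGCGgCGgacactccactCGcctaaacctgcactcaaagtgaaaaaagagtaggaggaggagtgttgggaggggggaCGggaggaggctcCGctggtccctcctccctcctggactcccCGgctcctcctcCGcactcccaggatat
Trim34a: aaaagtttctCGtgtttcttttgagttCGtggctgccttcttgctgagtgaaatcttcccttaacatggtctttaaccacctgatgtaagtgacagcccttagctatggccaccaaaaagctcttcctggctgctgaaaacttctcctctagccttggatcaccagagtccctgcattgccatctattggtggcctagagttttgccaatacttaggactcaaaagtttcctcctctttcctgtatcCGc
Gpr3: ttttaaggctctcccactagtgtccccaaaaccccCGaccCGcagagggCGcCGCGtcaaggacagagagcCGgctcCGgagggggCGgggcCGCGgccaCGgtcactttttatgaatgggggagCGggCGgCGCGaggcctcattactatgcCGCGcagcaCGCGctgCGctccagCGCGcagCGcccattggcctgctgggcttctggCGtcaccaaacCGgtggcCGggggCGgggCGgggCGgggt

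The sorted cells of both groups carried the H3K4me3 pattern of endothelium. Of the 25 genes listed as pan-endothelial, 18 had a peak within 1000 bp of an annotated gene end in both lists, among them Cdh5 (VE-cadherin), Cldn5, Kdr, Tie1 and Sox17. A further 6 had none there in either list. Of these Vwf had no peak in the gene or within 5000 bp, while Egfl7, Ets1, Fli1, Icam2 and Lmo2 had peaks there in both lists. None of 20 leukocyte genes had a peak at a gene end in both lists. Ptprc (CD45), Spi1, Csf1r, Itgam and Cd3e were among the 14 without any peak in the gene or within 5000 bp. The other 6, Cd3g, Cd68, Cd79a, Coro1a, Nkg7 and Tyrobp, had a peak there in both lists, with 321 to 943 bp in WT and 505 to 1053 bp in KO. For lung epithelium 2 of 20 genes were marked in both lists, Sftpc (1074 bp in WT and 1143 bp in KO) and Abca3 (722 and 918 bp). For mesenchymal and mural cells 1 of 20 was, Fgf10 (505 bp in WT and 448 bp in KO). Of the shared peaks, 79.3% in the WT list and 79.5% in the KO list lay within 1000 bp of a protein-coding gene start, the place where this mark is known to lie.

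Both lists were alike in the middle of the width range and differed at its ends. The KO list held 5859 peaks under 200 bp against 2204 in WT, 2.66 times as many, and this class made up 47.2% of its surplus of 7740 peaks. The ratio was 1.19 for peaks of 300 to under 500 bp and 1.19 for 500 to under 750 bp. It was 1.56 from 1000 to under 1500 bp, and 2.47 at 1500 bp or more, where KO had 861 peaks and WT 349. The median width was thus lower in KO (431 bp, quartiles 196 and 830) than in WT (506 bp, quartiles 260 and 827), although its widest peaks were more numerous. The narrowest peak was 121 bp in WT and 101 bp in KO, and 1420 KO peaks (6.25%) were narrower than any WT peak. Without them the KO list was 1.42 times as long as the WT list. Depth, peak threshold and minimum width of each list are not known here, and their part in these differences was not tested.

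**Figure D1:**
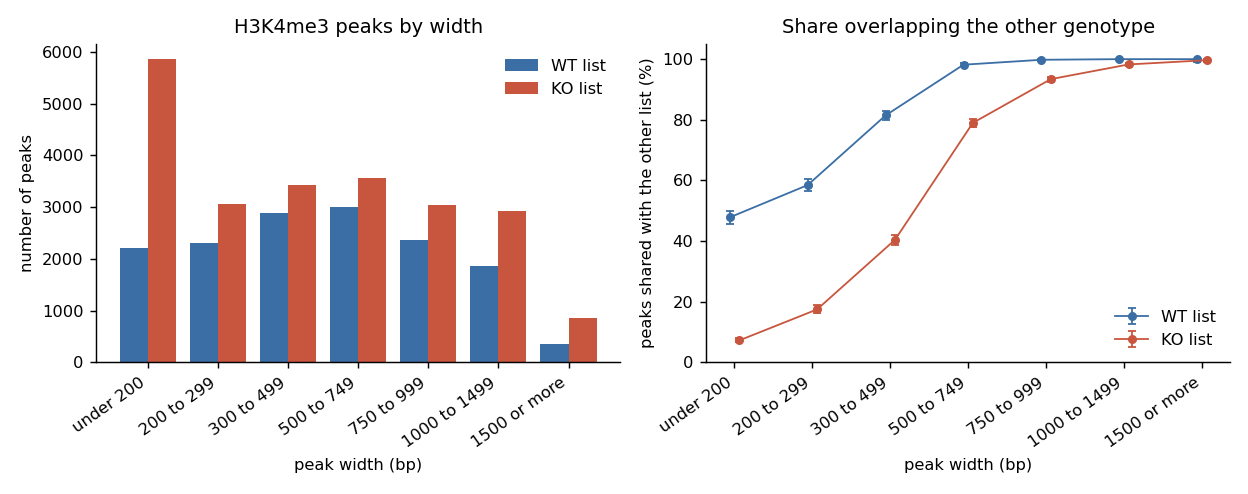
Left, number of H3K4me3 peaks in 7 classes of width (bp) in the WT and KO lists. Right, percent of each class that overlaps a peak of the other list by at least 1 bp, with exact 95% intervals; KO peaks under 200 bp are the largest class, and 7.22% of them overlap a WT peak.

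Narrow peaks were also those that lay apart from the other genotype. By an overlap of 1 bp, 11004 KO peaks (48.4%) met no WT peak and 2704 WT peaks (18.0%) met no KO peak. Under 200 bp, 7.22% of KO peaks and 47.8% of WT peaks were shared. From 300 to under 500 bp the shares were 40.4% and 81.4%, and from 750 to under 1000 bp 93.4% and 99.8%. All WT peaks of 1000 bp or more met a KO peak, so the loss of a broad domain as a whole was not seen in these lists. KO-only peaks had a median width of 202 bp and WT-only peaks of 217 bp. KO-only peaks outnumbered WT-only peaks 4.07-fold, and 1.21-fold once the KO list was cut to as many of its widest peaks as the WT list holds. That cut kept KO peaks of 253 bp or more but WT peaks down to 121 bp. WT peaks whose only KO partner was narrower thus count as WT-only there.

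Genotype-only peaks were mostly isolated and did not flank a peak of the other genotype. The median gap from a KO-only peak to the nearest WT peak was 24508 bp, and 776 of 11004 (7.05%) lay within 500 bp of one. For WT-only peaks the median gap was 15354 bp, and 372 of 2704 (13.8%) lay within 500 bp of a KO peak.

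The KO surplus was present on each of the 19 chromosomes. The ratio of KO to WT peaks ran from 1.41 on chromosome 11 to 1.67 on chromosome 18, with a median of 1.51. Chromosome 11 also had the highest shared parts, 84.6% of WT peaks and 56.8% of KO peaks, and chromosome 12 the lowest, 77.4% and 45.8%. KO-only peaks outnumbered WT-only peaks 3.40-fold on chromosome 14 and 4.88-fold on chromosome 18. Relative to genes, KO-only peaks ranged from 33.2 per 100 protein-coding genes on chromosome 7 to 79.3 on chromosome 18. WT peaks per 100 genes were lowest and highest on the same chromosomes, at 51.8 and 88.8.

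Peaks found in both genotypes were wider in KO. Over 10606 pairs of 1 WT and 1 KO peak that met no other peak, the KO peak was the wider one in 7754 (73.1%). The median ratio of widths was 1.18, the interval of this median 1.17 to 1.19, and the median gain 118 bp (quartiles -11 and 275). The gain lay on both sides, with medians of 52 bp at the left and 45 bp at the right edge. In 49.7% of pairs the WT peak lay inside the KO peak, and in 10.7% the KO peak lay inside the WT peak. KO peaks at least 2 times as wide made up 13.7% of pairs, and KO peaks at most 0.5 times as wide 1.99%.

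How the gain depended on width changed with the list used to sort the pairs, since sorting by 1 list's width favours wider partners for narrow peaks. Sorted by WT width, the median ratio went from 2.86 under 200 bp to 1.18 at 500 to under 750 bp and 0.999 at 1500 bp or more. Sorted by KO width, it went from 0.558 under 200 bp to 1.18 at 1500 bp or more. Sorted by the mean of both widths, it was 0.979 under 200 bp, highest at 1.49 from 300 to under 500 bp, and 1.06 at 1500 bp or more. The gain thus stood out under all 3 orders for pairs of 300 to under 750 bp, where the median ratio lay between 1.18 and 1.49.

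The gain was larger in pairs with no listed start inside the WT peak. Pairs without a listed start inside had a median ratio of 1.25 (WT median width 462 bp), those with starts of 1 strand 1.15 (734 bp) and those with starts of both strands 1.11 (862 bp). Their WT widths differ in the same order, so width and position cannot be told apart here. Since 16457 of 20665 genes have a listed start, the first class also holds pairs over starts that are not listed. Where H3K27ac was present in both genotypes the ratio was 1.17 (WT median width 686 bp), and where it was absent in both it was 1.29 (308 bp), so here too width differed with the class. The ratio varied little with CG content at starts, with a median of 1.15 for promoters with under 10 CG and 1.16 for those with 30 or more.

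Around starts the mark reached further into the gene than upstream, and the KO gain had the same lean. In 5517 pairs over starts of 1 strand, the median WT peak reached 251 bp upstream and 437 bp downstream of the start. The KO peak added a median of 38 bp upstream and 61 bp downstream, and the added part exceeded 100 bp in 27.7% upstream and in 39.9% downstream. For WT peaks under 500 bp the median gains were 64 and 142 bp, and for those of 1000 bp or more 23 and 15.5 bp. For these broadest peaks the median gain was no longer larger downstream, while gains over 100 bp were still seen in 27.2% downstream and 22.5% upstream.

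**Figure D2:**
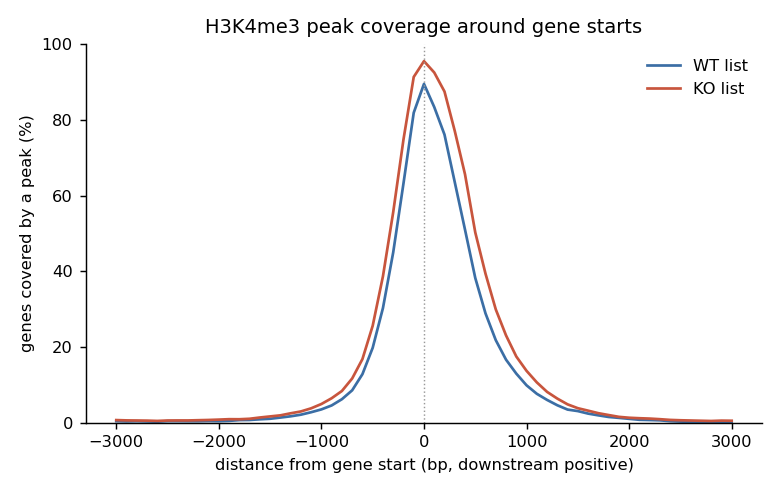
Percent of 6308 genes with 1 listed start and H3K4me3 in both genotypes that are covered by a peak at each distance (bp) from the start, for the WT and KO lists. The KO line lies above the WT line at the start (95.5% against 89.5%) and 600 bp downstream (39.3% against 28.9%), and both are under 1% at 3000 bp on either side.

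The gain was also seen position by position. Among 6308 genes with a single listed start and the mark in both lists, a WT peak covered the start in 89.5% and a KO peak in 95.5%. At 300 bp upstream the shares were 45.0% and 55.6%, and at 600 bp upstream 12.8% and 16.8%. Downstream they were 63.5% and 77.0% at 300 bp, 28.9% and 39.3% at 600 bp, and 13% and 17.5% at 900 bp.

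Some KO peaks spanned neighbouring WT peaks. Of 11720 shared KO peaks 722 met 2 or more WT peaks, and of 12280 shared WT peaks 210 met 2 or more KO peaks. The KO peaks of the first kind had a median width of 1326 bp where the WT peaks under them summed to 878 bp, with 223 bp between them. Of these 722, 632 (87.5%) lay at a protein-coding start.

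The 5 gene ends with the largest gain in paired width had WT peaks of 155 to 561 bp. At Plxna4, a semaphorin receptor on chromosome 6, a WT peak of 155 bp faced a KO peak of 2479 bp. At Fjx1, which encodes a secreted protein of the four-jointed family, 332 bp faced 2032 bp. Zfp36l2, an RNA-binding protein that promotes mRNA decay, had 353 bp in WT and 1975 bp in KO. Ado, a thiol oxidase, had 561 and 2116 bp, and Jund, a subunit of AP-1, had 374 and 1921 bp. KO H3K27me3 overlapped the pair at all 5 genes and WT H3K27me3 at 4. KO H3K27me3 lay on 61.9% of all shared KO peaks of 1500 bp or more.

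Large losses were smaller in extent. Mycl, a transcription factor of the Myc family, had 1419 bp in WT (chr4:122995417-122996835) and 166 bp in KO. Plxnb2, a plexin receptor, had 1306 and 578 bp, and Ahcyl2 had 1461 and 716 bp. Dcbld1 had 1996 and 1204 bp, and Mthfsl 938 and 267 bp. At Mycl the width fell by 1253 bp, the largest loss, against a largest gain of 2324 bp at Plxna4. At Mycl, Dcbld1, Plxnb2 and Mthfsl a WT H3K4me1 peak was present and no KO one, and at Ahcyl2 the reverse held. H3K4me1 was less frequent in KO at shared peaks in general. Of all shared WT peaks of 1000 to under 1500 bp, 87.3% lay on WT H3K4me1 and 74.4% on KO H3K4me1.

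Genotype-only peaks lay mainly away from starts. KO-only peaks were at a protein-coding start in 20.1% of cases (interval 19.3 to 20.8), inside a gene in 41.3% and between genes in 33.9%. For WT-only peaks the shares were 13.5% (12.2 to 14.8), 47.0% and 36.2%. A further 3.03% of KO-only and 1.96% of WT-only peaks lay at a noncoding start, and 1.62% and 1.37% at the 3' end of a protein-coding gene. The median distance to a listed start was 27161 bp for KO-only and 30754 bp for WT-only peaks. Chromosome 18 has no listed start, so its 405 KO-only and 83 WT-only peaks count as the farthest ones in these medians.

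Wider KO-only peaks were found at starts more often. The share at a protein-coding start was 14.2% under 200 bp, 25% from 300 to under 500 bp, 42.6% from 500 to under 750 bp and 74.5% from 1000 to under 1500 bp (38 of 51). For WT-only peaks it was 13.4% under 200 bp, 14.2% from 300 to under 500 bp and 21.8% from 500 to under 750 bp (12 of 55, interval 11.8 to 35). When only peaks of 500 bp or more entered from both lists, the shares were 66.1% for KO-only and 65.3% for WT-only. A peak whose partner was under 500 bp counts as genotype-only in that setting. These shares therefore include peaks that are shared in the full lists, and they do not describe the WT-only peaks above.

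**Figure D3:**
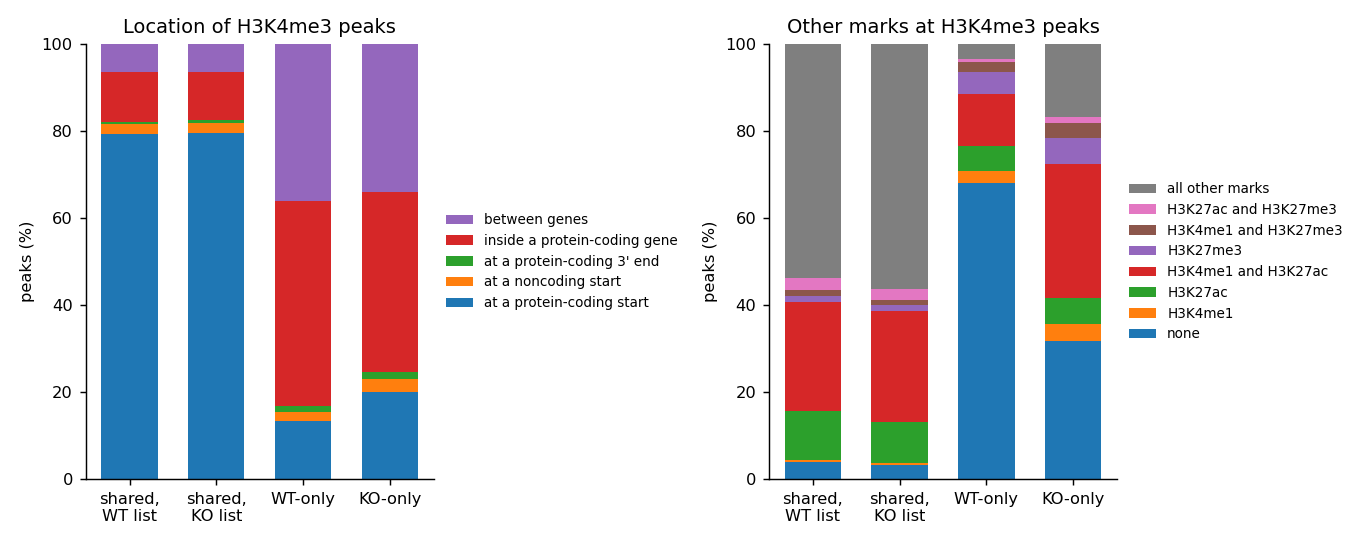
Percent of shared, WT-only and KO-only H3K4me3 peaks by location (left) and by which of H3K4me1, H3K27ac and H3K27me3 of either genotype overlap them (right). Shared peaks lie mostly at starts; 68.1% of WT-only and 31.9% of KO-only peaks overlap none of the other marks.

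The other marks differed between both kinds of genotype-only peak. H3K4me1 marks enhancers and promoter flanks, H3K27ac active enhancers and promoters, and H3K27me3 genes silenced by Polycomb. No peak of these 3 marks, in either genotype, lay on 68.1% of WT-only peaks (66.3 to 69.9) and on 31.9% of KO-only peaks (31.0 to 32.8), against 3.93% of shared WT peaks. H3K4me1 together with H3K27ac, and no H3K27me3, lay on 30.9% of KO-only and 11.8% of WT-only peaks. All 3 marks lay on 16.8% and 3.55%. Peaks of WT alone gave 51.5% of KO-only and 17.4% of WT-only peaks on H3K4me1. On WT H3K27ac lay 50.0% and 19%, and on WT H3K27me3 20.7% and 7.88%.

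This overlap depended on width, but in each class under 750 bp the share was higher for KO-only than for WT-only peaks. On WT H3K4me1 lay 37.8% of KO-only peaks under 200 bp, 58.2% of those of 200 to under 300 bp and 70.9% of those of 300 to under 500 bp. The corresponding shares for WT-only peaks were 16.4%, 17.4% and 18.5%. Among the widest KO-only peaks, of 1000 to under 1500 bp, the share was 47.1% (24 of 51). KO-only peaks with H3K27me3 as the sole other mark numbered 661, and 54.2% of them lay at a protein-coding start, against 11.9% of those with H3K4me1 and H3K27ac.

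At genes, H3K4me3 present in KO alone was far more frequent than in WT alone. With a peak within 1000 bp of either annotated gene end, 1426 of 20665 protein-coding genes (6.90%) were KO-only and 141 (0.682%) WT-only, a ratio of 10.1. Among genes without the mark in WT, 12.8% had it in KO, and among genes with it in WT, 1.48% lacked it in KO. At listed starts, 1084 of 16457 genes (6.59%) were KO-only and 93 (0.565%) WT-only. With lists of equal length, made of the widest peaks, the ratio of 10.1 at gene ends became 2.77, where only the KO list lost peaks.

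KO-only genes had CG-rich promoters less often than marked genes and far more often than unmarked ones. The median number of CG in the 250 bases before the start was 19 for genes marked in both lists, 13 for KO-only, 11 for WT-only and 3 for genes marked in neither. At least 10 CG were present in 86.3%, 66.8%, 58.1% and 17.9% of these genes. Of genes without WT H3K4me3, the share with a KO peak was 2.48% at 0 to 4 CG, 15.8% at 5 to 9, 30.7% at 10 to 14, 37.6% at 15 to 19, 37.0% at 20 to 29 and 44.7% at 30 or more. The interval of the last class was 38.3 to 51.3. Of genes with WT H3K4me3, the share without a KO peak went the other way, from 6.34% at 0 to 4 CG (17 of 268) to 0.479% at 30 or more (6 of 1252).

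**Figure D4:**
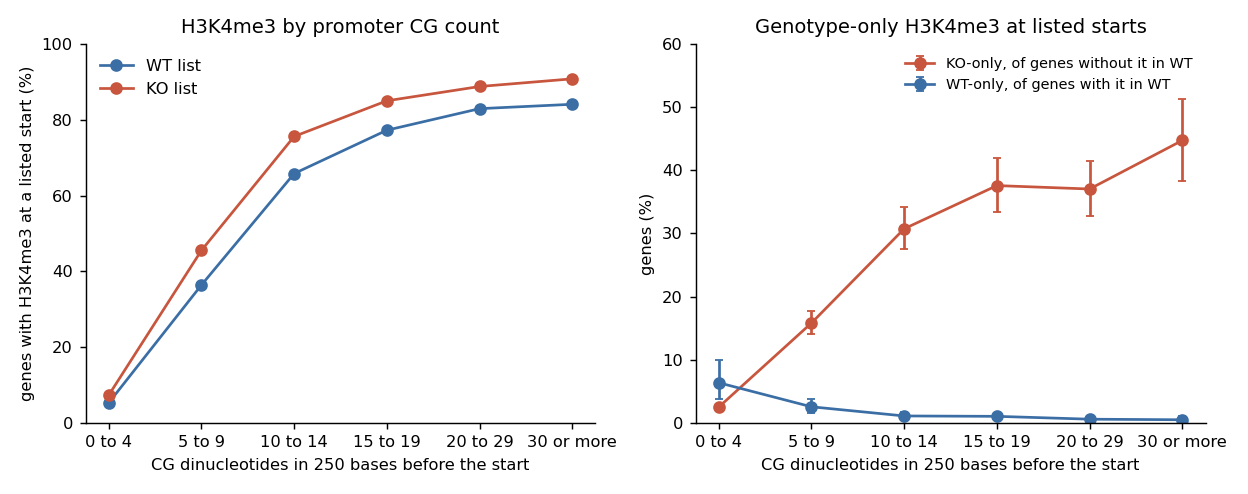
H3K4me3 at listed starts by the number of CG dinucleotides in the 250 bases before the start. Left, percent of genes marked in each list; right, percent marked in KO among genes unmarked in WT, and percent unmarked in KO among genes marked in WT, with exact 95% intervals. The first climbs from 2.48% to 44.7% and the second is at most 6.34%.

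The WT state of the other marks divided genes further. Among genes without WT H3K4me3 and with under 10 CG, 1.78% (94 of 5271) had a KO peak where WT H3K27ac and H3K27me3 were both absent. This was 9.18% with WT H3K27me3 alone, 35.1% with WT H3K27ac alone and 50.0% with both (49 of 98). With 10 CG or more the shares were 22.0%, 23.8%, 80.9% (199 of 246, interval 75.4 to 85.6) and 75.3%. At high CG content most genes that were acetylated and without H3K4me3 in WT thus had a KO peak. H3K27me3 alone went with 23.8% against 22.0% without either mark, and their intervals of 21.2 to 26.6 and 18.7 to 25.6 overlap.

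The widest KO-only peaks at gene ends lay over annotated starts in most of the genes named here. Of the 1426 KO-only genes, 1225 were the nearest gene to such a peak, each peak being given to 1 gene. Ssh1, a cofilin phosphatase, and Igf2r, the imprinted receptor that clears IGF2, were among the widest, with 1567 and 1563 bp. Further wide ones lay at Phf19, Plekhm2, Ncoa3, a coactivator of nuclear receptors (1379 bp), and Adam23, a membrane protein of the ADAM family (1285 bp). All of these named peaks except that of Phf19 overlapped H3K27ac of both genotypes, and Phf19 overlapped none of the other marks. The widest KO-only peak at a gene end, of 1692 bp at Adamts5, overlapped no H3K27ac peak and overlapped H3K27me3 of both genotypes. Zswim7 (1227 bp) overlapped H3K27ac in WT alone, and Trim34a (1190 bp), an interferon-inducible TRIM protein, overlapped it in both.

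Other genes ranked from 6 to 15 had a KO-only peak on H3K27me3. Bend4 (1268 bp), Bmpr1a (1207 bp), Satb1 (1198 bp) and Map6d1 (1186 bp) had no H3K27ac peak there and had H3K27me3 in both genotypes. Bmpr1a encodes a type I receptor for bone morphogenetic proteins and Satb1 a chromatin organiser. The KO-only peak of Satb1 covered its outermost annotated start and a neighbouring one. The 250 bases before another of its starts overlapped a WT peak and no KO peak. Taken over all its starts, Satb1 thus counted as marked in both lists. CG counts before the start were 23 for Bend4, 36 for Bmpr1a, 27 for Adam23 and 40 for Zswim7, and 11 for Map6d1.

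WT-only peaks at gene ends were narrower. By the same rule, 110 of the 141 WT-only genes were the nearest gene to one. Gpr3 (chr4:133212235-133213069, 835 bp) encodes a constitutively active receptor and had H3K27me3 in both genotypes. The genes ranked next to the 5 widest were Tchp (521 bp), Rin1 (515 bp), Mrps25 (510 bp), Cmklr1 (501 bp) and Hoxb5 (482 bp). Tchp encodes a keratin-binding protein, Rin1 a Ras effector, Mrps25 a mitochondrial ribosomal protein and Cmklr1 the chemerin receptor. Tchp and Rin1 overlapped H3K27ac in WT alone, and Mrps25 and Hoxb5 overlapped none of the other marks.

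Endothelial genes differed little in whether they were marked and more in how many peaks they held. Of the 25 pan-endothelial genes, 1 was KO-only at a gene end (Erg, 205 bp, with a start marked in both lists) and none was WT-only. Within the gene and 5000 bp on each side, KO-only peaks lay at 19 of 25 genes (76.0%), against 27.4% of all protein-coding genes. WT-only peaks lay at 5 (20.0%), against 8.87%. The list held 54 KO-only and 6 WT-only peaks. Of its 24 genes with any peak, 20 (83.3%) had more marked bases in KO, against 80.1% of all 13382 genes with a peak, so in this respect it was near the background.

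Single endothelial genes illustrate this. Erg, an ETS factor of endothelial identity, had 4 peaks covering 2537 bp in WT and 13 covering 4704 bp in KO, of which 8 were KO-only. Ptprb, the phosphatase VE-PTP, had 2 peaks in WT and 8 in KO, and Flt1, a VEGF receptor, had 1 and 6. Fli1, another ETS factor, had 882 bp in WT and 3251 bp in KO. Pecam1 went the other way, with 5 peaks and 2100 bp in WT against 4 peaks and 1264 bp in KO. Tie1 had a single peak in each list, of 779 and 760 bp, and Sox18 of 1649 and 1642 bp.

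Genes of vessel subtypes included KO-only and WT-only ends, and most had more marked bases in KO. In the lung capillary list 13 of 17 genes were marked in both lists and 2 were KO-only, Fibin (271 bp) and Tmem100 (877 bp), a gene downstream of BMP signalling in endothelium. More bases were marked in KO at 14 of its 16 genes with a peak, and it held 27 KO-only and 7 WT-only peaks. Of 23 arterial, venous and lymphatic genes, 12 were marked in both. Car8 and Reln were KO-only with 388 and 161 bp. Gja5, the arterial connexin 40, and Lyve1, a hyaluronan receptor of lymphatic vessels, were WT-only with 238 and 135 bp, although Lyve1 and its flanks had 280 marked bp in WT and 416 in KO. This list had more bases marked in KO at 16 of 17 genes with a peak, and 25 KO-only against 4 WT-only peaks. Over all genes 6.90% were KO-only and 0.682% WT-only at an end. More bases were marked in KO at 80.1% of all 13382 genes with a peak. The shares were 87.5% in the capillary list and 94.1% in the arterial, venous and lymphatic list, both of few genes. Summed over all genes there were 8921 KO-only and 2061 WT-only peaks.

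Markers of other lung cells appeared among KO-only genes with narrow peaks. For lung epithelium 4 of 20 were KO-only and none WT-only, namely Elf3, Epcam, Foxj1 and Scgb1a1, with 104 to 264 bp. For mesenchyme and mural cells 5 of 20 were KO-only, namely Acta2, Col1a2, Kcnj8, Myh11 and Rgs5, with 138 to 364 bp, and none was WT-only. For leukocytes 1 of 20 was, Cd79a with 108 bp. Over all genes the KO-only share was 6.90%. Many of these markers lacked the mark in WT, and only such genes can be KO-only. Of those without it, 22.2% of 18 epithelial, 26.3% of 19 mesenchymal and mural and 5% of 20 leukocyte genes were KO-only. Of all genes without the mark in WT 12.8% were. Cut to the length of the WT list, the KO list kept peaks of 253 bp or more, which leaves out all of these except Epcam and Kcnj8. Whether other cells in the sort contributed was not tested.

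Of the developmental genes of other lineages 21.3% were KO-only at an end, against 6.90% of all genes and 25% of the mesenchymal and mural list. Of the 58 without the mark in WT 22.4% were KO-only, against 12.8% of all such genes. Of 61 transcription factors of other lineages 3 were marked at an end in both lists, 13 were KO-only and none was WT-only. Sox21 had a KO peak of 1160 bp (chr14:118236184-118237343) and Isl1 one of 865 bp (chr13:116309232-116310096), and each covered the whole 250 bases before a listed start. En2 had 501 bp and Eomes 447 bp, and Foxd3 and Gata5 had 133 and 136 bp. KO-only peaks in or near the gene were present for 30 of 61 (49.2%), against 27.4% of all genes, and WT-only peaks for 6 (9.84%), close to the 8.87% of all genes.

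The Hox genes, which pattern the body axis, showed a smaller share. Of 39, 6 were marked in both lists and 27 in neither. Of the 31 without the mark in WT 12.9% were KO-only, against 12.8% of all such genes. Hoxa3, Hoxa13, Hoxc5 and Hoxd13 were KO-only with 127 to 277 bp, and Hoxb5 and Hoxd8 were WT-only with 482 and 343 bp. The WT-only peaks were thus the wider ones in this family.

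Genes known to depend on DNA methylation were mixed. Of 30 imprinted genes, 12 were marked in both lists and 5 (16.7%) were KO-only, against 6.90% of all genes. These 5 make 27.8% of the 18 without the mark in WT, against 12.8% of all such genes. Of these Igf2r had 1563 bp (chr17:12768508-12770070) and Ndn, a maternally imprinted gene of the Prader-Willi region, 947 bp. Igf2, Phlda2 and Zim1 had 119 to 204 bp. H13, marked in both lists when either gene end counts, went the other way at its listed start. It had a WT peak of 675 bp and no KO peak there. Igf2r held 3 further KO peaks that were shared with WT, and the KO-only one covered the start.

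Germline genes whose promoters are silenced by DNA methylation in somatic cells were marked in neither list in 23 of 29 cases. Of the rest 4 were marked in both, and Dazl and Boll, RNA-binding proteins of germ cells, were KO-only. Dazl had 635 bp (chr17:50292535-50293169), inside the gene within 1000 bp of its start, and Boll 102 bp. These 2 of 29 make 6.90%, the same share as over all genes. Of the 25 germline genes without the mark in WT they make 8%, against 12.8% of all such genes.

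Enzymes of the pathways themselves were marked in both genotypes in most cases. Of 21 genes of DNA methylation 17 were marked at an end in both and none was genotype-only. Of 21 genes of H3K4 methylation 16 were marked in both, and Setd1b, a SET1-type methyltransferase, and Kmt2d (MLL4) were KO-only at an end, Kmt2d with a listed start marked in both lists. Setd1b had no WT peak and 6 KO peaks covering 1434 bp. The KO list of Dnmt3a (chr12:3801559-3914443) held 8 peaks covering 4780 bp and the WT list 5 covering 2543 bp, of which 5 and 2 were genotype-only. A start inside the gene was marked in both lists. The deleted part of the gene is not given, so a peak at a start cannot show whether the deletion took place. Of 24 housekeeping genes 21 were marked in both lists and none was genotype-only.

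The genes with the most genotype-only peaks were long. A KO-only peak in the gene or within 5000 bp was found for 5665 of 20665 genes (27.4%) and a WT-only peak for 1832 (8.87%). At least 3 KO-only peaks occurred in 713 genes and 3 or more WT-only peaks in 29. Of the 10 genes with the most KO-only peaks 9 were longer than 100 kb, and of the 10 with the most WT-only peaks all 10 were.

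Ctif, a factor of cap-dependent translation on chromosome 18 (chr18:75431205-75697696), led with 12 KO-only peaks and no WT-only peak. It had 3 peaks covering 1910 bp in WT and 15 covering 5596 bp in KO, and its KO-only peaks were 108 to 477 bp wide and all inside the gene. Arhgap26, a GTPase-activating protein, had 11 KO-only peaks, each on a WT H3K4me1 peak. Bach2, a transcriptional repressor of lymphocytes, and Tcf4, a basic helix-loop-helix factor, had 11 each. Bach2 had 2 WT-only peaks besides and Tcf4 none.

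Nfatc1, a calcineurin-dependent factor needed in the endocardium, had 9 KO-only peaks, 1 of which (chr18:80712286-80713396, 1111 bp) lay at its start. Tns1, a focal adhesion protein, Foxp1, a forkhead repressor, Pde4d, a cAMP phosphodiesterase, and Dock9, an exchange factor for Cdc42, also had 9. Synpo, an actin-binding protein, had 8. With lists of equal length, where only the KO list lost peaks, Dock9 had 1 more WT-only than KO-only peak.

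Together these 10 genes held 98 KO-only peaks, 76 of which (77.6%) lay on WT H3K4me1, against 51.5% of all KO-only peaks. Ctif, Arhgap26, Tcf4, Nfatc1 and Synpo, 5 of the 10, are on chromosome 18, which holds 2.47% of protein-coding genes. Among the 25 genes with 8 or more KO-only peaks 5 were on this chromosome, and among the 157 with 5 or more 13 were (8.28%). Chromosome 18 also had the most WT peaks per protein-coding gene, as given above. None of its genes has a listed start, so the values at listed starts and the CG counts leave this chromosome out.

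**Figure D5:**
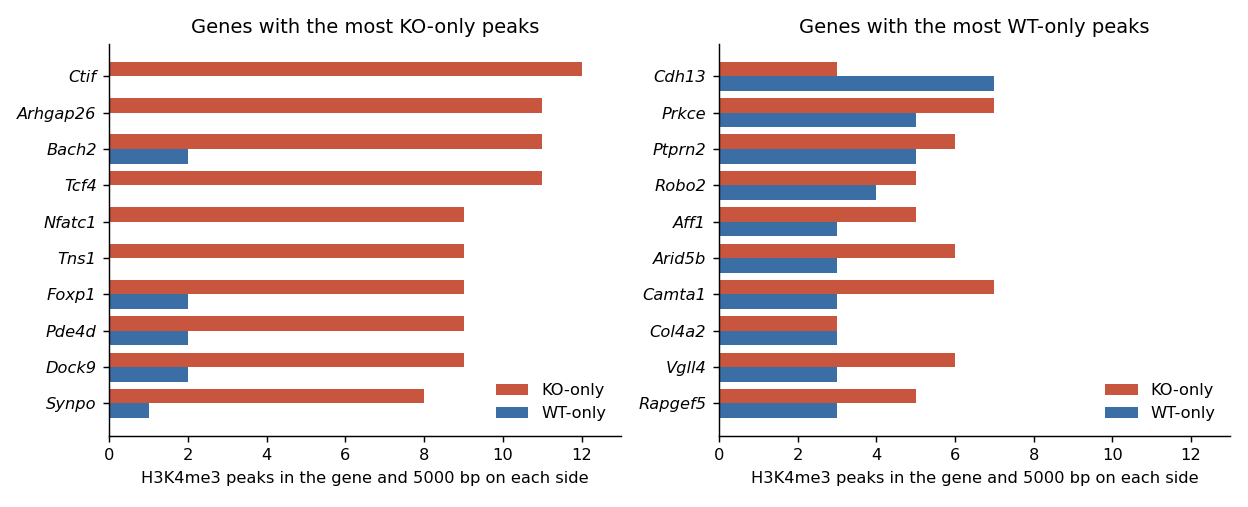
Number of KO-only and WT-only H3K4me3 peaks in the gene and 5000 bp on each side, for the 10 genes with the most KO-only (left) and the 10 with the most WT-only peaks (right). KO-only bars reach 12 on the left, and on the right KO-only peaks equal or exceed WT-only peaks in all genes but Cdh13.

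The genes with the most WT-only peaks had KO-only peaks as well. Cdh13, which encodes T-cadherin, had 7 WT-only and 3 KO-only peaks. Its marked length was 2007 bp in WT and 1274 bp in KO. It was the only one of these 10 genes with more WT-only than KO-only peaks. Prkce, a protein kinase C, had 5 WT-only and 7 KO-only peaks, Ptprn2, a phosphatase-like protein of secretory granules, 5 and 6, and Robo2, a Slit receptor, 4 and 5. Col4a2, a collagen of basement membranes, had 3 of each.

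In Aff1, Arid5b, Camta1, Vgll4 and Rapgef5, 3 WT-only peaks stood beside 5 to 7 KO-only peaks. Of the 39 WT-only peaks in the 10 genes 12 (30.8%) lay on WT H3K4me1, against 17.4% of all WT-only peaks. Without peaks under 200 bp, Prkce, Ptprn2, Aff1 and Arid5b had more WT-only than KO-only peaks, by 1 to 3. With lists of equal length, where only the KO list lost peaks, the same 4 genes, Robo2, Vgll4 and Rapgef5 did, by 1 to 4.

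Counted per 100 kb of gene and its flanks, in genes of at least 10 kb, other genes led. Icam1, a leukocyte adhesion molecule of inflamed endothelium, had 6 KO-only peaks (26.2 per 100 kb) and a single WT peak. These 6 reached from 21012110 to 21031753 on chromosome 9, past both ends of the gene (21015940-21028814). Peaks in the flanks can belong to neighbouring genes, and 4 of the 6 lay at a protein-coding start. Pcbp4 had 5 KO-only peaks, and Egfl7, an endothelial secreted factor, Myct1 and Tal1, a regulator of blood and endothelial development, had 4 each. Setd1b followed with 6 peaks and Kdm6b, an H3K27 demethylase, with 5. None of the 10 genes with the most KO-only peaks by number was among the first 10 by density.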

How the data were processed

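The values are the positions and widths of H3K4me3 peaks in the authors' deposited lists, with other marks' lists used for overlap; these values belong to the unit class other and were not rescaled. Per the submitters' processing notes, the tools included MACS2 2.1.2.1, Bowtie2 2.2.6, Trim Galore 0.4.4, deepTools 3.1.1, cutadapt 1.14 and SAMtools, and the builds were mm10 and R64. Not given in the sources used here are the peak threshold and any pooling of the 3 samples per group. The lists hold no score, so width was the only measure for ranking and stricter selection. The depth of each sample is unknown.

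Overlaps of at least 1 bp were counted with pandas 2.3.3, numpy 2.4.6 and scipy 1.17.1 in Python 3.11.15. Figures were made in matplotlib 3.10.9. The steps were tested on simulated lists. The gene table held 20665 protein-coding genes (GRCm38.p6) on chromosomes 1 to 19, of which 16457 had listed starts with strand (20085 starts). No gene of chromosome 18 had a listed start. For other genes both ends counted as starts in the location of peaks. Genes of the lists were classed by a peak within 1000 bp of either end.

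The members, the 13 gene lists (362 genes, 349 found) and the comparisons were chosen with earlier results of these data known. Genes named are the 10 with most genotype-only peaks in each direction, the 5 with the largest gain and loss in paired width, those ranked 6 to 15 (KO-only) and 6 to 10 (WT-only) by width at gene ends, list members whose class differs (up to 8 a list, alphabetically) and Dnmt3a. Gm and Rik symbols were passed over. Some genes that the rule names are left out of the text. Ssh1, Igf2r and Gpr3 as sequence examples, Sox21, the single endothelial genes, and the density leaders were chosen after their values were seen. The same holds for Adamts5, Phf19, Plekhm2 and H13.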

Additional observations from a re-analysis of the deposited data

How the results depend on the processing

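No paired analysis was possible because each group has 1 peak list, and leaving out each replicate was not run for the same reason. With peaks of at least 200 bp, WT and KO peaks were shared in 86.0% and 62.9%, the median width ratio was 1.17, KO-only and WT-only peaks lay at a protein-coding start in 29.1% and 17.4% and on WT H3K4me1 in 65.2% and 23.2%, and 262 and 15 genes had 3 or more of them. With at least 500 bp these values were 94.2% and 68.1%, 1.12, 66.1% and 65.3%, 74.4% and 60.3%, and 42 and 0, with KO-only over WT-only peaks at 7.51. With the KO list cut to the length of the WT list by width they were 78.1% and 73.5%, 1.19, 29.2% and 18.6%, 68.9% and 25%, and 100 and 51, with ratios of 1 for the number of peaks, 1.21 for genotype-only peaks and 2.77 for genes. With an overlap of 50% of the shorter peak, 80.6% and 50.7% were shared, and WT-only peaks lay at starts in 16.5% and on H3K4me1 in 19%. With peaks within 500 bp also shared, the shares were 84.4% and 55.0%, those at starts 17.2% and 7.38%, and KO-only on H3K4me1 53.3%. With neighbours joined, 52.9% of KO peaks were shared, 16.4% and 9.89% lay at starts, and 54.0% of KO-only peaks on H3K4me1. A window of 500 bp gave 15.2% and 8.17% at starts, 2500 bp 26.8% and 21.1%, and either end of each gene 18.8% for KO-only. KO-only minus WT-only peaks turned to -3 for Prkce, -2 for Ptprn2 and -1 for Aff1 and Arid5b with at least 200 bp. With lists of equal length they turned to -1 for Dock9, Vgll4 and Rapgef5, -4 for Prkce and Ptprn2, -2 for Robo2 and Arid5b, and -3 for Aff1. Of 629 alternative values for named genes, 427 were close to the value reported, 190 moved and these 12 changed sign. Of the 10 genes leading by KO-only and by WT-only peaks, 5 and 3 were kept with at least 200 bp, 1 and 0 with at least 500 bp, 4 and 7 with lists of equal length, and 0 and 0 by density. The cause of these changes was not tested, except that the width minimums and equal lengths remove narrow peaks by construction. A peak whose partner in the other list was removed then counts as genotype-only.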

Other observations

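At starts of long noncoding RNA genes, too, more genes were KO-only than WT-only. Of 8111 lncRNA genes over 1000 bp from every listed protein-coding start, 403 had H3K4me3 in both lists. A further 322 were KO-only (3.97%, interval 3.56 to 4.42) and 49 were WT-only (0.604%, interval 0.447 to 0.798). At listed starts of protein-coding genes the shares were 6.59% and 0.565%. The filter used listed starts only, so lncRNA genes beside a protein-coding gene without a listed start can remain. Of the lncRNA genes with an established symbol, Zfp783 had the widest KO-only peak (417 bp). Next came Dnm3os (398 bp), a host of microRNAs antisense to Dnm3, Snhg20 (340 bp) and Dlx6os2 (328 bp), and Snhg16 had 311 bp. Morrbid, a lncRNA that restrains Bcl2l11, had 190 bp. Carlr was WT-only with 450 bp. These names were picked after their values were seen.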
